A study of Mus musculus with 24 samples.

Results

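Dawn and dusk were compared in the livers of mice that ate ad libitum (AL) by contrasting 4 AL libraries taken around lights on with 4 taken around lights off, out of 24 libraries in the whole series. The dawn window joined zeitgeber times (ZT, hours counted from lights on) 22 and 2, with 2 libraries each. The dusk window joined ZT 10 and 14, also with 2 libraries each. The libraries were taken by their labelled diet and time alone, and all 15490 genes with enough counts were tested. The animals were C57BL/6 mice aged 5 months, and the RNA was the poly(A) RNA found on polysomes, the fraction in which several ribosomes sit on one transcript. All AL mice served as controls for mice on calorie restriction (CR), which lost 30% of their calories for 3 months from the age of 2 months. CR libraries of the same hours, 8 in number, are used below for comparison only.

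No label gives the light schedule of the rooms or the feeding hours of the CR mice. Whether libraries of 1 group stem from different animals is not labelled, and the pair of AL libraries at ZT 22 is numbered 2C and 2d. The p-values below therefore measure the spread between libraries, which may be partly technical. Total RNA was not analysed here, so the amount of a transcript and its loading onto polysomes cannot be told apart. Fewer cells of a type and less RNA per cell cannot be told apart either.

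The circadian clock of the liver is a transcription loop. BMAL1, encoded by Arntl, pairs with CLOCK or its relative NPAS2 and activates genes that carry E-box motifs, among them the Period and Cryptochrome genes, whose proteins then repress that activation. The REV-ERB receptors, encoded by Nr1d1 and Nr1d2, repress and the ROR receptors activate Arntl through response elements of their own, and the factors DBP, TEF and HLF act on D-box motifs. In nocturnal rodents the dark hours are the main hours of feeding, and liver genes of lipid, glucose and drug metabolism follow both the clock and meals.

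Promoter stretches of 3 clock genes are shown because they carry the motifs of the loop and because the genes took opposite sides of the comparison below. Each runs from 250 bases before to 29 bases after a RefSeq start site of mouse build GRCm38.p6, 5′ to 3′ on the strand of the gene, with matches to the motif in capitals. Arntl is shown at its second listed start, chr7:113207261-113207539 on the plus strand. Ciart lies at chr3:95882200-95882478 and Per3 at chr4:151044637-151044915, both on the minus strand.
Arntl: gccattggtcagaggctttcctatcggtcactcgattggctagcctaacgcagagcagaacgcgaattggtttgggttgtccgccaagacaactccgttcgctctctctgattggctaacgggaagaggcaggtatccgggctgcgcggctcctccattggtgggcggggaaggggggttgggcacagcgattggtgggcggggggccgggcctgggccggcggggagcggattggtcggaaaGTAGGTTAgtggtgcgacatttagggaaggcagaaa
Ciart: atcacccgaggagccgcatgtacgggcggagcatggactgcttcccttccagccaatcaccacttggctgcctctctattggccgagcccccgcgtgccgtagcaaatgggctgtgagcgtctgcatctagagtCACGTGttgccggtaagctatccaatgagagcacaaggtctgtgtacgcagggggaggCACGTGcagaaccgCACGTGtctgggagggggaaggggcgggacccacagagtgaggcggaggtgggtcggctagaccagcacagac
Per3: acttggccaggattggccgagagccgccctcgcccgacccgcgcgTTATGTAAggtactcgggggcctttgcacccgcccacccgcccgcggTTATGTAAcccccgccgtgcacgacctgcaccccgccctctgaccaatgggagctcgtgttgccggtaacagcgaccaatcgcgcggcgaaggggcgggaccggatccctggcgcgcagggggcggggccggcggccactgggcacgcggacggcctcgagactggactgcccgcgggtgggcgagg
The capitals in Arntl mark GTAGGTTA, a match to the REV-ERB and ROR response element searched as GTAGGTNA, at bases -7 to 1 counted from the start site. A further match, GTAGGTCA, lay at bases 30 to 37, past the end of the stretch shown. The 3 runs of capitals in Ciart are E-boxes (CACGTG) that begin 116, 58 and 44 bases before the start. The 2 in Per3 are D-boxes, TTATGTAA, searched as TTANGTAA, that begin 205 and 158 bases before it.

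Both strands were searched, from 250 bases before to 50 after the start, and no match in these 3 windows overlapped another. Among 32851 RefSeq windows of that length, 7.15% held an E-box and 0.0883% held 3 or more. D-boxes occurred in 2.32% of windows, with 2 or more in 0.0822%. The response element occurred in 2.14%, with 2 or more in 0.0365%. Windows matched 16 of the 19 clock genes of the lists used below. Per1, Cry1, Bhlhe41 and both Tef windows held 1 E-box in at least 1 start window, and Nfil3 held 1 response element. The other 8 of the 16 genes, among them Npas2, Clock and Dbp, held none of the 3 motifs in these windows. A match is a run of letters and does not show that a protein binds there.

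The 8 libraries held 13.8 to 37.6 M counted reads. Levels are given as CPM, read counts scaled to library size. Ribosomal RNA features held 21.9 to 62.2% of the reads at dawn and 7.65 to 59.0% at dusk, a difference within the spread (exact permutation test of 4 against 4, two-sided p = 0.429). The 12 hepatocyte markers, Alb and Apoa1 among them, were all present and their summed level was 15.3 to 16.3 on the log2 scale of CPM in every library. Transcripts rich in G and C stood lower against those poor in them at dawn, by -0.26 ± 0.13 in log2, than at dusk, where the value was 0.25 ± 0.19 (SD, n = 4 each). The 4 dawn libraries did not overlap the 4 dusk libraries in this (exact permutation test, two-sided p = 0.0286, the smallest that 4 against 4 allows, and 0.543 after adjustment over 19 library properties). Library AL ZT 22 2C stood apart in acute phase and neutrophil genes, and its values are given beside the results they touch.

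Polysome-associated RNA of 265 genes differed between dawn and dusk, 1.71% of the 15490 tested. Of these, 109 were higher at dawn (0.704%) and 156 lower (1.01%). A gene counts as called where its adjusted p was under 0.05 (edgeR, quasi-likelihood F-test, Benjamini-Hochberg). The change was at least 2-fold for 219 of the called genes, and its median size was 1.32 in log2. The 4 dawn and 4 dusk libraries did not overlap for 242 of the called genes. Over all genes tested this held for 13.4%, with dawn above dusk for 6.11% and below for 7.25%. An unadjusted p under 0.05 was reached by 2607 genes, 16.8%. These shares over all genes are the ones to set beside the counts in each list below.

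The count depended on single libraries. Leaving out 1 of the 8 lowered it to between 54 (without AL ZT 10 replicate 2) and 158 (without AL ZT 22 2d), with 82 without AL ZT 22 2C. Each removal lowered it by more than 1.5 times. All 265 genes kept their direction in each of those fits. That was largely fixed beforehand, since the same libraries had picked them and the windows of 242 did not overlap. With library sizes that had no correction for composition, 54 genes were called, 30 higher and 24 lower, so that 55.6% were higher in place of 41.1%. Median centring within 25 classes of transcript length and GC content called 194 genes, of which 134 were among the 265.

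The plot of the largest changes shows the 12 genes in each direction that changed most among those with at least 10 CPM on average and no overlap between the windows.

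**Figure D1:**
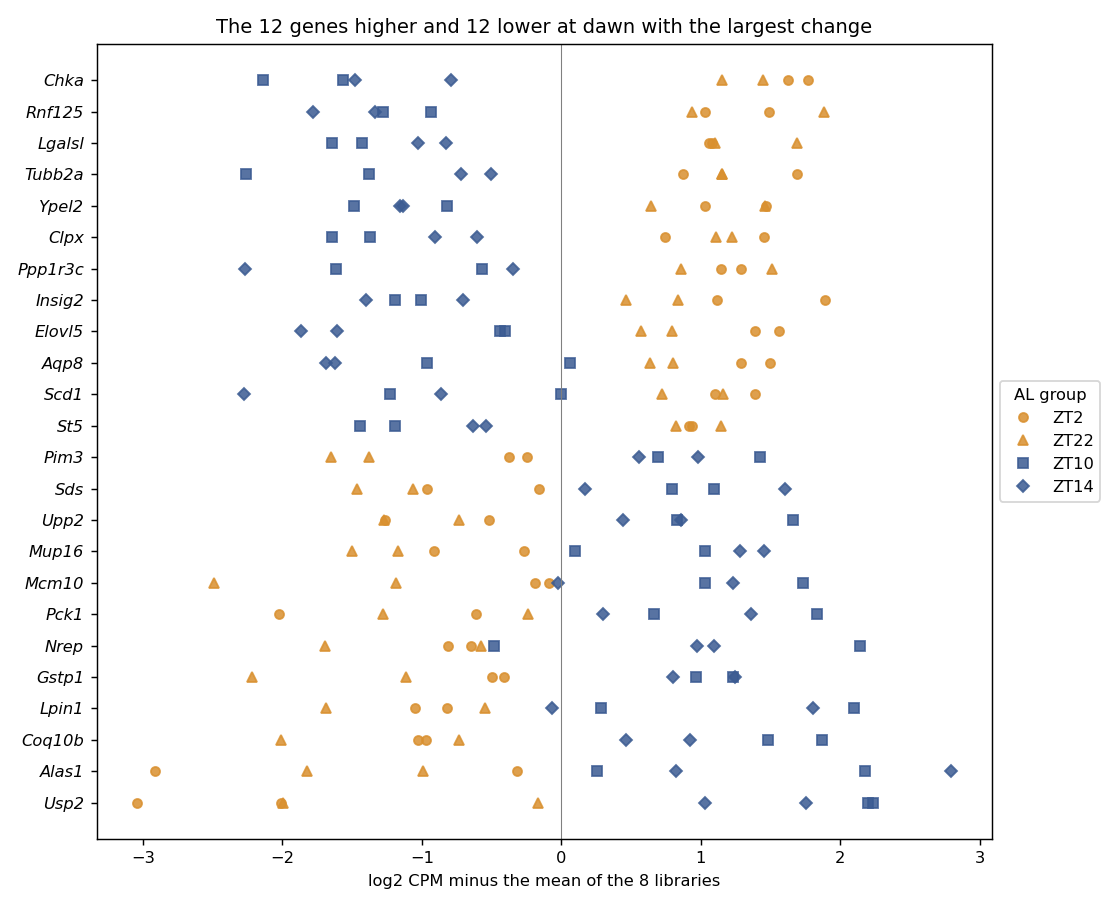
Level of 24 genes in the 8 AL libraries, as log2 CPM minus the mean of the 8 for that gene. Orange marks are dawn libraries (ZT 22 and ZT 2), blue marks dusk libraries (ZT 10 and ZT 14), and for each gene all 4 orange marks lie on one side of all 4 blue ones, which was a condition for being shown.

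Chka, encoding choline kinase of phosphatidylcholine synthesis, had the largest rise among the 12 genes higher at dawn in the plot of the largest changes. It measured 71.0 and 57.8 CPM at ZT 22, 88.7 and 80.2 at ZT 2, 8.80 and 5.92 at ZT 10, and 9.33 and 15.1 at ZT 14. The lowest dawn library was thus well above the highest dusk library, and the change was 2.96 ± 0.35 in log2 (SE, edgeR adjusted p = 7.56e-05). Lgalsl, a galectin-like gene, had the smallest SE of those 12. It measured 37.4 and 25 CPM at ZT 22, 24.6 and 24.2 at ZT 2, 4.32 and 3.72 at ZT 10, and 6.56 and 5.70 at ZT 14, a change of 2.47 ± 0.24 (SE, edgeR adjusted p = 5.07e-06). Clpx, which encodes the unfoldase of the mitochondrial ClpXP protease, measured 137 to 224 CPM at dawn and 26.2 to 53.9 at dusk. The ubiquitin ligase gene Rnf125 measured 58.2 to 113 and 8.85 to 16.0 CPM in the same order. Ypel2, St5, a regulator of Rab GTPases, and Aqp8, a channel for water and hydrogen peroxide, rose by 2.31, 1.91 and 2.06 in log2. Tubb2a, a beta-tubulin, measured 73.9 to 130 CPM at dawn and 8.43 to 28.4 at dusk, and 49.6% of its words of 50 bases also occur in other genes, so its reads may be shared with other tubulins. Aqp8 was not called in any of the 8 fits that left out a library (edgeR adjusted p between 0.054 and 0.141), whereas Chka, Lgalsl, Clpx, Rnf125, Ypel2, St5 and Tubb2a were called in all 8.

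Usp2, a deubiquitinase gene linked to the clock, fell most among the 12 genes lower at dawn in that plot. It measured 4.06 and 14.4 CPM at ZT 22, 1.97 and 4.03 at ZT 2, 76.0 and 74.5 at ZT 10, and 33.0 and 54.5 at ZT 14. All dusk libraries exceeded the highest dawn library, AL ZT 22 2d, and the change was -3.44 ± 0.49 (SE, edgeR adjusted p = 0.000562). Coq10b, a coenzyme Q-binding protein of mitochondria, measured 3.28 to 7.98 CPM at dawn and 18.2 to 48.4 at dusk. The kinase gene Pim3 fell by 1.85 in log2, with 5.39 to 14.3 CPM at dawn and 24.9 to 45.4 at dusk. The replication factor gene Mcm10 fell by 2.00, the uridine phosphorylase gene Upp2 by 1.90 and Nrep by 2.07. Mup16, a major urinary protein, fell by 1.94, but 91.7% of its words of 50 bases occur in other genes of that large family, so its reads cannot be assigned to it with certainty. Usp2, Coq10b and Pim3 were called without each library in turn, while Mcm10 was called in 4, Upp2 in 5, Nrep in 3 and Mup16 in 2 of those 8 fits (largest edgeR adjusted p 0.236, for Nrep without AL ZT 10 replicate 2).

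All 3 activators of the clock loop were higher at dawn, against 0.704% of all genes. Arntl (ENSMUSG00000055116.8, chromosome 7, 113207465 to 113314126 in GRCm38) measured 11.8 and 17.8 CPM at ZT 22, 16.4 and 8.93 at ZT 2, 0.496 and 0.279 at ZT 10, and 3.20 and 1.37 at ZT 14. Every dawn library was above every dusk library, and the change was 3.82 ± 0.48 (SE, edgeR adjusted p = 0.000141). Npas2 measured 3.67 and 4.55 CPM at ZT 22, 5.43 and 4.86 at ZT 2, 0.159 and 0.0465 at ZT 10, and had 0 counts in both ZT 14 libraries. Its dawn mean of 4.63 CPM was at least 42.4-fold higher than ZT 14, taking 3 counts over the 2 ZT 14 libraries as the floor, 0.109 CPM (edgeR adjusted p = 3.5e-05 for dawn against dusk). Clock measured 37.1 and 43.3 CPM at ZT 22, 46.3 and 33.8 at ZT 2, 18.6 and 13.9 at ZT 10, and 17.1 and 18.2 at ZT 14, again with no overlap. Its change of 1.24 ± 0.23 was the smallest of the 3 (SE, edgeR adjusted p = 0.00788). Arntl and Npas2 were called without each library in turn, whereas Clock was not called without AL ZT 2 replicate 1 (edgeR adjusted p = 0.0589) or AL ZT 10 replicate 2 (0.08).

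**Figure D2:**
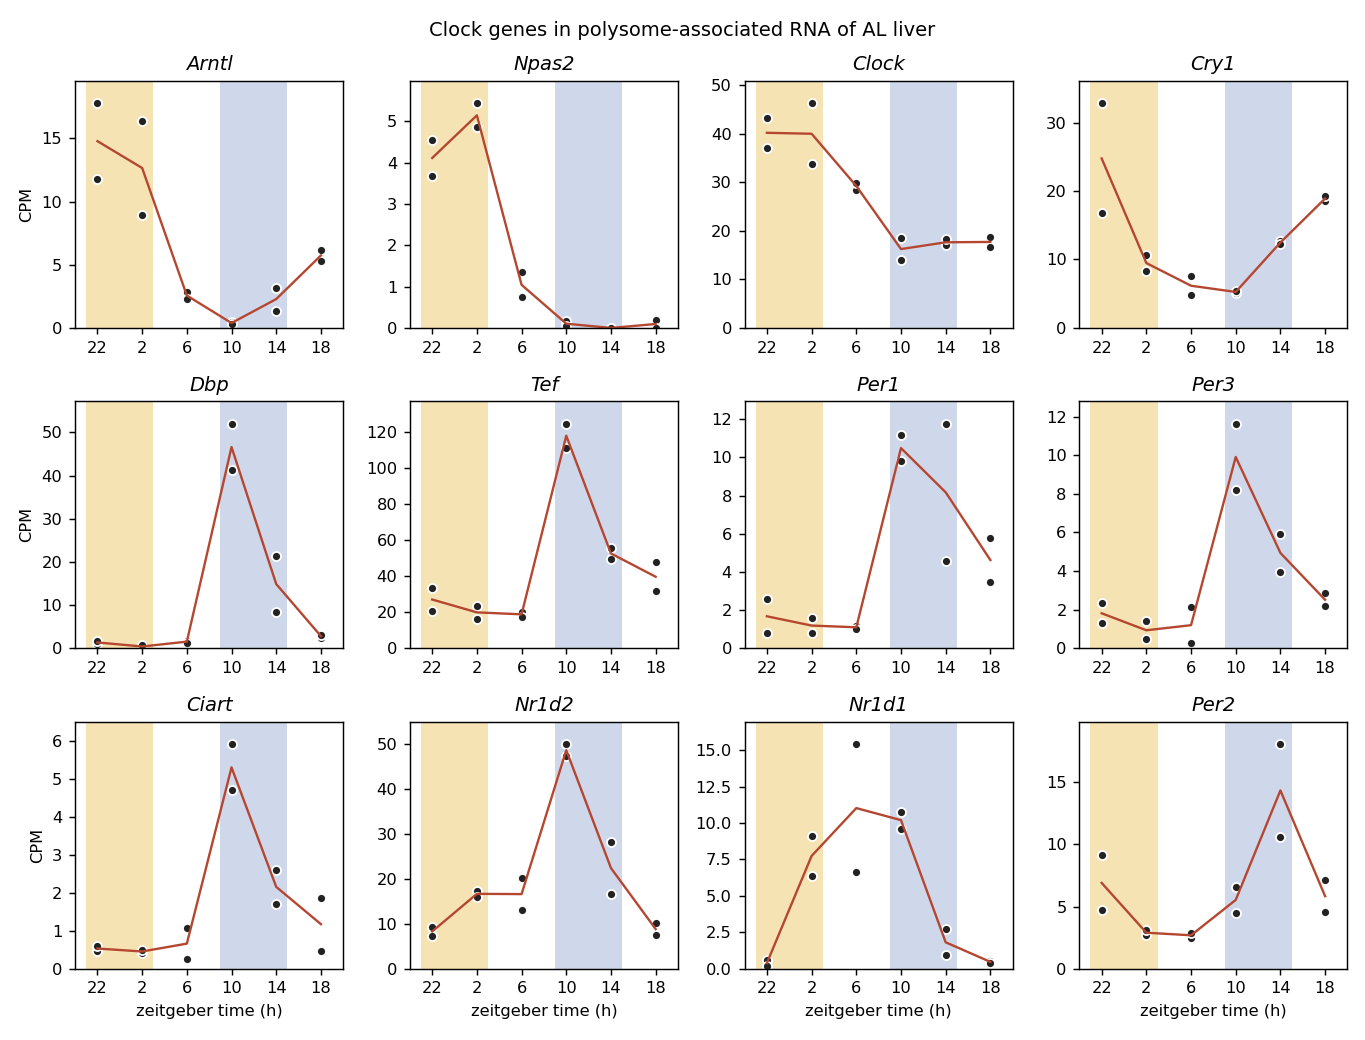
CPM of 12 clock genes in the 12 AL libraries against zeitgeber time, with ZT 22 drawn first; points are libraries, lines join group means, and the yellow and blue bands are the dawn and dusk windows. Arntl, Npas2 and Clock are high in the yellow band, Dbp, Tef, Per1, Per3 and Ciart in the blue one, and Nr1d1 and Nr1d2 change within a band.

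Of 8 repressors of the loop, 3 were lower at dawn, 0 were higher and 5 were not called. Per1 measured 0.782 and 2.57 CPM at ZT 22, 0.794 and 1.59 at ZT 2, 9.79 and 11.2 at ZT 10, and 4.59 and 11.7 at ZT 14, with no overlap and a change of -2.70 ± 0.50 (SE, edgeR adjusted p = 0.00658). Ciart, whose protein represses CLOCK and BMAL1 and whose promoter with 3 E-boxes is printed above, measured 0.469 and 0.601 CPM at ZT 22, 0.410 and 0.504 at ZT 2, 4.71 and 5.92 at ZT 10, and 2.61 and 1.71 at ZT 14. Its dawn libraries were all under its dusk libraries (change -2.78 ± 0.47, SE, edgeR adjusted p = 0.00372). Per3, with the 2 D-boxes, measured 0.461 to 2.34 CPM at dawn and 3.95 to 11.6 at dusk, a change of -2.40 ± 0.58 (SE, edgeR adjusted p = 0.0359). Ciart was called without each library in turn. Per1 was not called without AL ZT 2 replicate 1 or AL ZT 22 2C (edgeR adjusted p = 0.0537 and 0.0543), and Per3, which overlaps Camta1 in libraries that carry no strand, in none of the 8 fits (0.0538 to 0.169).

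Per2 measured 4.69 and 9.10 CPM at ZT 22, 2.69 and 3.10 at ZT 2, 4.46 and 6.60 at ZT 10, and 10.6 and 18.0 at ZT 14. Its windows overlapped because ZT 22 reached the level of ZT 10, and its change of -0.99 ± 0.37 was not called (SE, edgeR adjusted p = 0.168). Cry1 was highest at ZT 22, with 16.7 and 32.8 CPM, and lowest of the 4 groups at ZT 10, with 5.10 and 5.41 (change 0.92 ± 0.31, SE, edgeR adjusted p = 0.129). Bhlhe41, another repressor, did not overlap between the windows but was not called (change -2.83 ± 0.83, SE, edgeR adjusted p = 0.0781). Cry2 and Bhlhe40 had changes of 0.00 and -0.55 and were not called.

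Nr1d2, encoding REV-ERB beta, measured 7.27 and 9.36 CPM at ZT 22, 17.3 and 16.1 at ZT 2, 47.4 and 50 at ZT 10, and 28.2 and 16.7 at ZT 14. The lowest dusk library fell just within the dawn range, and the change of -1.49 ± 0.28 was called (SE, edgeR adjusted p = 0.00663), though not without AL ZT 2 replicate 2 or AL ZT 22 2C (0.0548 and 0.0543). Nr1d1, encoding REV-ERB alpha, measured 0.625 and 0.172 CPM at ZT 22 and 9.12 and 6.37 at ZT 2, then 10.8 and 9.62 at ZT 10 and 2.72 and 0.912 at ZT 14. It thus differed more within each window than between them, and its change of -1.31 ± 0.45 was not called (SE, edgeR adjusted p = 0.13). Nr1d1 overlaps Thra, and without strand their reads cannot be told apart there. The ROR receptor gene Rora was not called at 0.82 ± 0.24 (SE, edgeR adjusted p = 0.0747).

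Among the factors that act on D-boxes, Dbp fell most. It measured 1.02 and 1.72 CPM at ZT 22, 0.102 and 0.766 at ZT 2, 41.3 and 52.0 at ZT 10, and 21.4 and 8.33 at ZT 14. The dawn libraries were all far below the dusk libraries, with a change of -5.08 ± 0.61 (SE, edgeR adjusted p = 7.9e-05). Dbp overlaps Sphk2, whose reads can enter its count. Tef measured 16.4 to 33.3 CPM at dawn and 49.7 to 125 at dusk, a change of -1.76 ± 0.31 (SE, edgeR adjusted p = 0.00505, and 0.0511 without AL ZT 2 replicate 1). Hlf, of the same family, changed by -0.20 ± 0.21 and was not called (SE, edgeR adjusted p = 0.676). Nfil3, which competes with them at D-boxes, measured 0.69 ± 0.27 and was not called either (SE, edgeR adjusted p = 0.192).

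Motifs were counted over all called genes with a promoter in the table, as a description. E-boxes lay in the windows of 18.7% of 123 genes lower at dawn, 9.64% of 83 higher at dawn, and 11.4% of all 11105 matched genes tested. The response element lay in 3.25%, 4.82% and 1.94%, and the D-box in 1.63%, 2.41% and 1.98%, in the same order. The called sets also differed in the G and C content of their transcripts, as given below. Its part in these shares was not tested.

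Of 16 tested genes in the list of clock-linked outputs, 4 were lower at dawn (Usp2, Por, Alas1 and Upp2) and 1 higher (Tars, threonyl-tRNA synthetase). The median change of the 16 was -0.99, against 0.03 for all genes tested. Alas1, the first enzyme of heme synthesis, measured 35.2 and 62.7 CPM at ZT 22, 16.5 and 100 at ZT 2, 149 and 564 at ZT 10, and 220 and 865 at ZT 14. The windows did not overlap, although the libraries of ZT 2, ZT 10 and ZT 14 differed widely within each hour, and the change was -3.04 ± 0.58 (SE, edgeR adjusted p = 0.00937). Por, the reductase that feeds electrons to cytochromes P450, measured 95.0 and 91.4 CPM at ZT 22, 31.9 and 63.3 at ZT 2, 159 and 220 at ZT 10, and 213 and 254 at ZT 14. All dusk libraries were above all dawn libraries (change -1.66 ± 0.25, SE, edgeR adjusted p = 0.000764). Por was called without each library in turn, Alas1 in 4 of those 8 fits and Tars in 0 (largest edgeR adjusted p 0.0705 and 0.157). Of the 41 genes of drug and heme metabolism, which include Por and Alas1, the third called was the glutathione transferase gene Gstp1, lower at dawn by 2.08 in log2. Gstp1 shares 33.7% of its words of 50 bases with other genes and was called in 3 of the 8 fits.

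Of 23 genes of fatty acid synthesis, 3 were called higher at dawn and 1 lower, with a median change of 0.37. Scd1, the desaturase that makes monounsaturated fatty acids, measured 6226 and 4609 CPM at ZT 22, 5988 and 7307 at ZT 2, 1192 and 2789 at ZT 10, and 1535 and 576 at ZT 14. No dusk library reached a dawn library, and the change was 2.05 ± 0.42 (SE, edgeR adjusted p = 0.0138). Elovl5, an elongase of polyunsaturated fatty acids, measured 237 and 276 CPM at ZT 22, 418 and 471 at ZT 2, 121 and 117 at ZT 10, and 43.8 and 52.3 at ZT 14. It was highest at ZT 2 and lowest at ZT 14, with no overlap (change 2.16 ± 0.26, SE, edgeR adjusted p = 7.9e-05). Insig2, which holds the regulator SREBP in the endoplasmic reticulum, measured 156 to 418 CPM at dawn and 42.7 to 69.1 at dusk. Lpin1, a phosphatidate phosphatase of triglyceride synthesis, went the other way, with 14.0 to 30.9 CPM at dawn and 43.1 to 193 at dusk (change -2.27 ± 0.46, SE, edgeR adjusted p = 0.0134). Elovl5 and Insig2 were called without each library in turn. Scd1 was not called without AL ZT 2 replicate 2, AL ZT 10 replicate 1 or AL ZT 14 replicate 2 (edgeR adjusted p = 0.0548, 0.107 and 0.087), and Lpin1 was called in 3 of the 8 fits.

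Of 25 genes of cholesterol synthesis, 20 had a positive change and 1 was called, with a median of 0.30. The called gene was Hmgcs1, encoding the synthase that makes HMG-CoA. It measured 311 to 518 CPM at dawn and 66.1 to 213 at dusk, a change of 1.71 ± 0.42 (SE, edgeR adjusted p = 0.037), and was called in 1 of the 8 fits that left out a library. Of 17 tested genes of bile acid synthesis and transport, 0 were called by edgeR, and 6 had an unadjusted p under 0.05 (median -0.19).

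**Figure D3:**
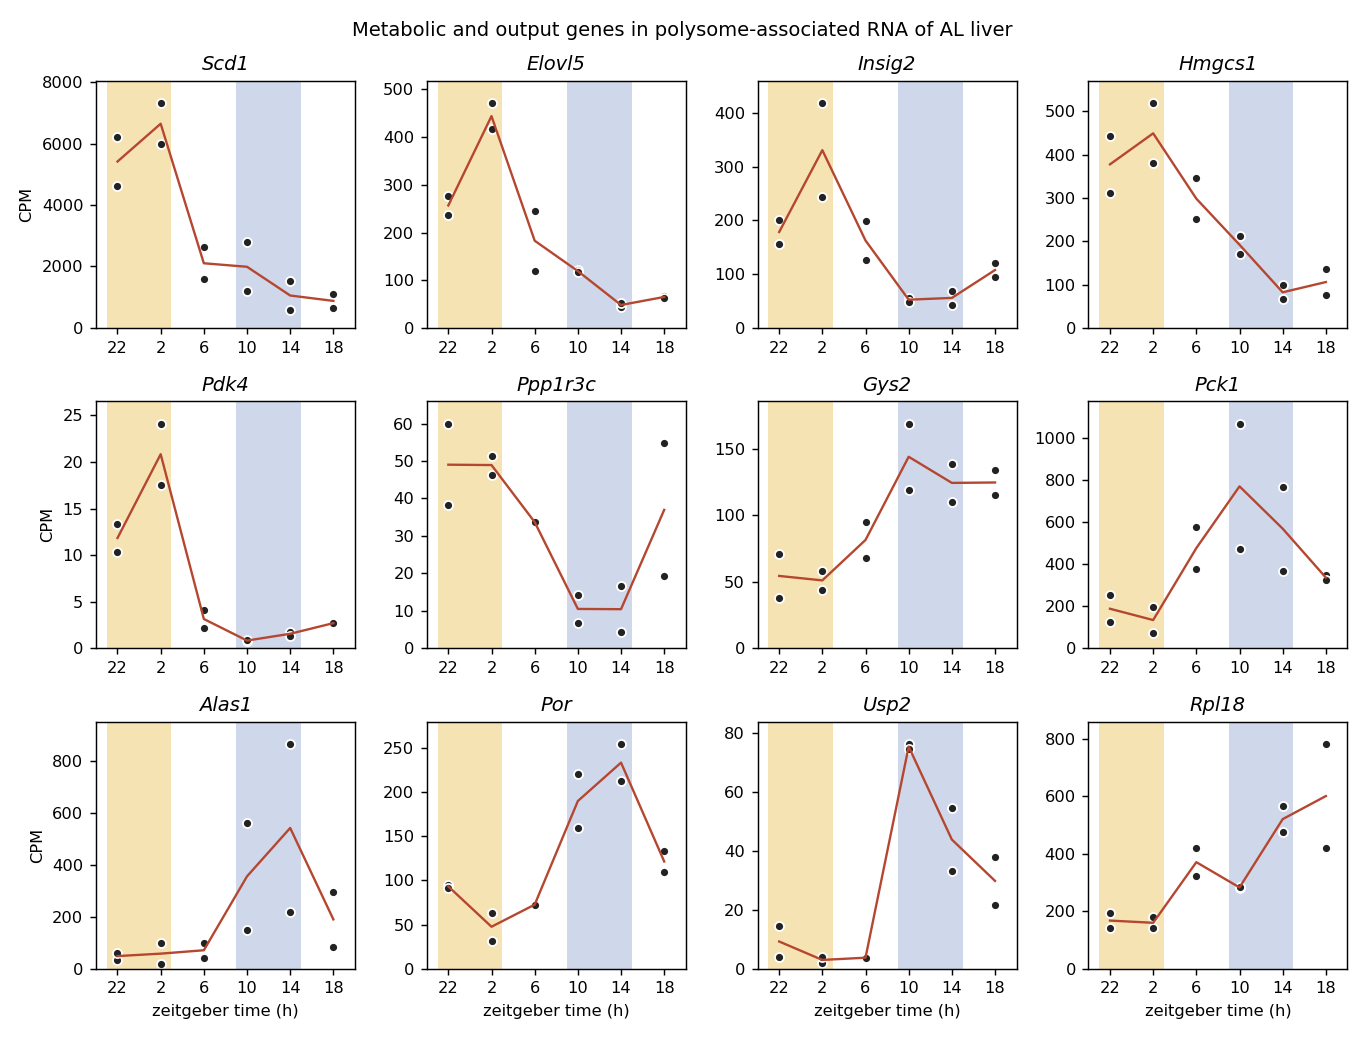
CPM of 12 genes in the 12 AL libraries against zeitgeber time, with points for libraries, lines through group means, and yellow and blue bands for the dawn and dusk windows. Scd1, Elovl5, Insig2, Hmgcs1, Pdk4 and Ppp1r3c are higher in the yellow band and Gys2, Pck1, Alas1, Por, Usp2 and the ribosomal protein gene Rpl18 in the blue one.

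Pdk4, the kinase that shuts pyruvate dehydrogenase and spares glucose, had the smallest p of all members of the metabolic lists. It measured 13.3 and 10.4 CPM at ZT 22, 24.1 and 17.6 at ZT 2, 0.814 and 0.860 at ZT 10, and 1.76 and 1.37 at ZT 14. The dawn libraries were all far above the dusk libraries (change 3.76 ± 0.34, SE, edgeR adjusted p = 3.14e-06), also without each library in turn. Of the other 31 genes of fatty acid oxidation and PPAR alpha targets, Acads, a short-chain acyl-CoA dehydrogenase, was called lower by 1.01 in log2, though in 1 of the 8 fits that left out a library. The median of all 32 was -0.10.

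Among 21 genes of glucose uptake, glycolysis and glycogen, 1 was higher at dawn and 3 lower, and the median was -0.36. The higher one, Ppp1r3c, targets protein phosphatase 1 to glycogen. It measured 38.1 and 59.9 CPM at ZT 22, 46.4 and 51.5 at ZT 2, 14.2 and 6.85 at ZT 10, and 4.37 and 16.5 at ZT 14, with no overlap (change 2.24 ± 0.37, SE, edgeR adjusted p = 0.00301). Gys2, the glycogen synthase of liver, measured 38.2 and 70.6 CPM at ZT 22, 58.0 and 44.1 at ZT 2, 119 and 169 at ZT 10, and 110 and 139 at ZT 14. It thus lay on the opposite side to Ppp1r3c (change -1.34 ± 0.26, SE, edgeR adjusted p = 0.0108). Pfkfb3, a regulator of glycolysis, fell by 2.02 in log2 (1.41 to 4.45 against 4.48 to 19.8 CPM). Ppp1r3g, another glycogen-targeting subunit, had 0 counts in both ZT 22 libraries, and its dusk mean of 0.877 CPM was at least 7.14-fold higher than ZT 22 over a floor of 3 counts (edgeR adjusted p = 0.0488 for dawn against dusk). Ppp1r3g measured 0.0768 and 0.181 CPM at ZT 2, 0.938 and 1.95 at ZT 10, and 0.160 and 0.456 at ZT 14. Its windows thus overlapped, and its ZT 14 values rest on 3 and 4 counts. Ppp1r3c was called without each library in turn, Gys2 in 4, Pfkfb3 in 2 and Ppp1r3g in 0 of those 8 fits.

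Gluconeogenesis genes were called lower at dawn for 2 of 13, with a median of -0.22 and negative changes for 11. Pck1, which commits the pathway, measured 124 and 253 CPM at ZT 22, 73.7 and 196 at ZT 2, 1068 and 474 at ZT 10, and 369 and 770 at ZT 14. The windows did not overlap (change -2.06 ± 0.41, SE, edgeR adjusted p = 0.0134). Slc37a4, the glucose-6-phosphate transporter, measured 49.3 to 61.4 CPM at dawn and 96.4 to 127 at dusk. Pck1 was called in 4 and Slc37a4 in 2 of the 8 fits that left out a library. In amino acid breakdown 1 of 32 was called, the serine dehydratase gene Sds, which overlaps Plbd2 and was lower at dawn by 1.88 in log2 (6.09 to 15 against 18.9 to 51.1 CPM), but not without AL ZT 2 replicate 1 or AL ZT 14 replicate 2 (edgeR adjusted p = 0.0537 and 0.0518). Of the 8 urea cycle genes 0 were called by edgeR, and 2 had an unadjusted p under 0.05.

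Of 19 genes that respond to glucocorticoids, 5 were lower at dawn and 1 higher, and the median was -0.11. The lower ones were Per1, Pck1 and Sds, described above, together with Fkbp5, a co-chaperone of the glucocorticoid receptor, and the transcription factor gene Cebpd. Fkbp5 measured 4.64 to 13.6 CPM at dawn and 14.1 to 34.7 at dusk, and Cebpd, which overlaps Spidr, 1.75 to 2.89 and 6.02 to 12.5. They were called in 3 and 2 of the 8 fits that left out a library. The higher one was Igfbp1, an IGF-binding protein, and its level was uneven at dawn: 29.5 CPM in AL ZT 22 2C, 0.772 in AL ZT 22 2d, and 14.7 and 11.5 at ZT 2, against 1.17 to 3.01 at dusk. The dawn library 2d was thus under every dusk library, and the change of 2.98 ± 0.73 (SE, edgeR adjusted p = 0.037) was 0.83 without AL ZT 22 2C (adjusted p = 0.674). Igfbp1 was also the 1 of 18 called in the list of the growth hormone and IGF axis.

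**Figure D4:**
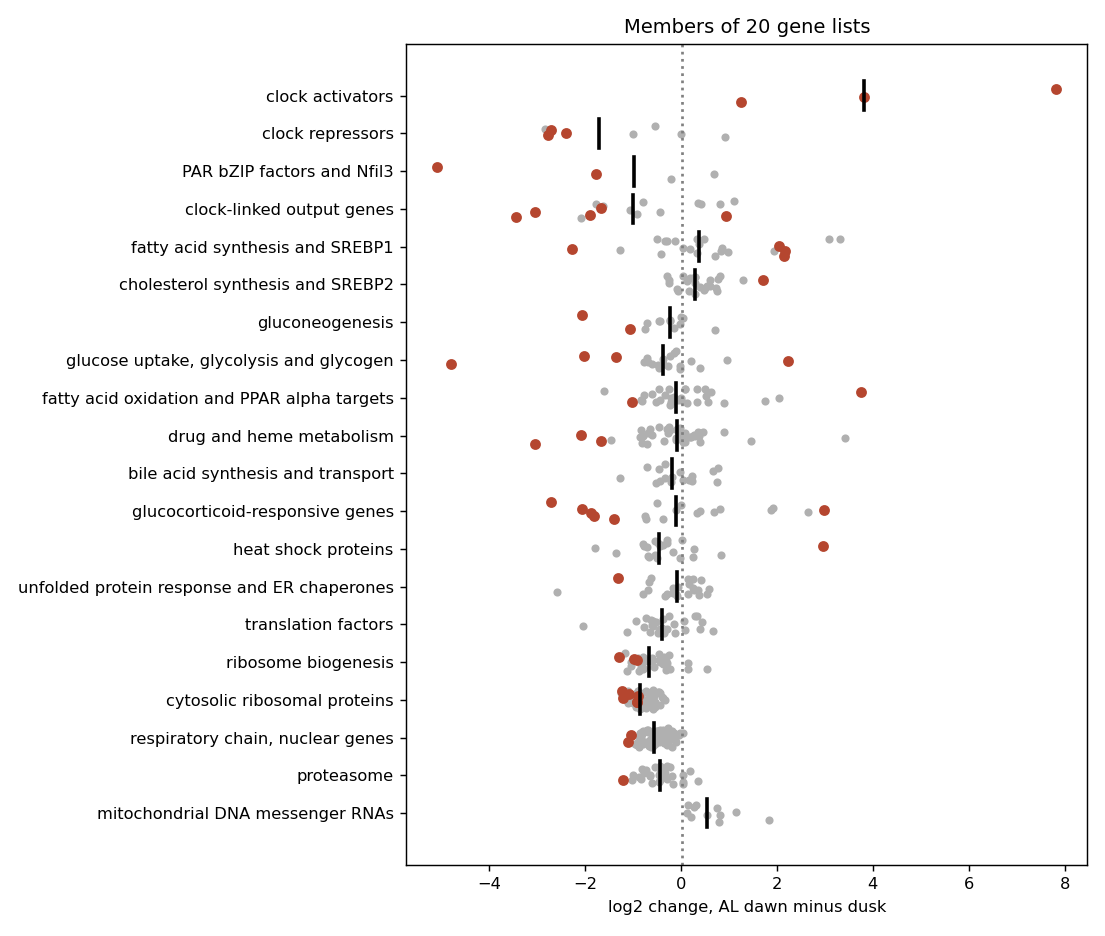
Change from dusk to dawn (log2, AL dawn minus dusk) of every tested member of 20 gene lists; red points were called, grey ones were not, black bars are list medians and the dotted line is the median of all genes, 0.03. Clock activators lie to the right and all 78 cytosolic ribosomal protein genes to the left of 0, while in most metabolic lists a few red points stand away from a centre near the dotted line; the points farthest right and, in the glucose list, farthest left are Npas2 and Ppp1r3g, whose fitted values are not bounds because 1 group of each has 0 counts.

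All 78 cytosolic ribosomal protein genes had a negative change, from -1.26 to -0.34, with a median of -0.85, though the libraries overlapped. Against the mean of the 8 libraries, the median member stood at -0.60 and 0.10 in log2 at ZT 22 (2C and 2d), -0.48 and -0.65 at ZT 2, -0.14 and 0.05 at ZT 10, and 0.80 and 1.01 at ZT 14. The dawn library 2d was thus above both ZT 10 libraries, and the ZT 14 libraries were highest. edgeR called 6 genes lower, namely Rps6, Rpl18, Rpl15, Rpl10, Rpl29 and Rps16, against 1.01% of all genes tested. The windows did not overlap for 21, with dawn below dusk, against 7.25% of all genes. Rps6, whose protein is a target of S6 kinase, measured 58.1 and 48.6 CPM at ZT 22, 57.4 and 53.4 at ZT 2, 91.6 and 101 at ZT 10, and 138 and 194 at ZT 14. The 4 dawn libraries were close together and under all dusk libraries (change -1.22 ± 0.22, SE, edgeR adjusted p = 0.00505, and 0.0502 without AL ZT 2 replicate 2). Rpl18, which overlaps Sphk2, measured 141 to 193 CPM at dawn and 282 to 565 at dusk, and was called in 2 of the 8 fits that left out a library (largest edgeR adjusted p 0.16). Rpl10, Rpl29 and Rps6 share 33.5%, 35.5% and 43.8% of their words of 50 bases with other genes, and Rpl15 overlaps Nkiras1.

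The ribosomal protein result moved with 1 group and with a joint centring by transcript length and GC content. The list median was -0.36 without both AL ZT 14 libraries, with 0 called, and it was -0.69 without AL ZT 22 2C. After centring within 25 classes of transcript length and GC content the median was -0.58 and 2 were called; DESeq2 called 34, and with no correction for composition 0 were called at a median of -0.91. Genes called lower at dawn had a median longest transcript of 1918 bases and 55.2% G and C, genes called higher 4423 bases and 46.7%, and all genes tested 3069 bases and 49.3%. The part of these properties in the result was not tested beyond that centring.

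Other lists of protein supply and respiration held few calls. Of 32 genes of ribosome biogenesis, 29 had a negative change and 3 were called lower, namely the nucleolar methyltransferase genes Fbl and Nop2 and the assembly factor gene Nop16 (median -0.67). Of 31 proteasome genes 1 was called lower, Psmd13, which overlaps Sirt3 (median -0.44). Nuclear genes of the respiratory chain had a negative change in 73 of 74, with a median of -0.55 and 2 called, Ndufv1 and Ndufs7, both of complex I. All dawn libraries were below all dusk libraries for 10 genes of ribosome biogenesis, 14 of the proteasome and 17 of the respiratory chain. Over all genes tested this held for 7.25%. In the same order, 18, 14 and 30 genes had an unadjusted edgeR p under 0.05, against 16.8% of all genes. Translation factor genes had 0 of 30 called by edgeR, 12 with an unadjusted p under 0.05 and a median of -0.39. The 11 mitochondrial DNA messenger RNAs tested had a median of 0.54 and 0 called, with 2 under an unadjusted p of 0.05, and without AL ZT 22 2d that median was -0.07. Psmd13 and Ndufv1 were called in 2 of the 8 fits that left out a library. Calls of Nop16, Rpl10, Rpl15 and Rpl29 were lost without each of the 8 libraries, and those of Fbl, Nop2 and Ndufs7 without 7 of them.

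The lists of chaperones and nutrient sensors gave single calls. In the heat shock list, where 5 of 22 had a positive change and the median was -0.45 (0.02 without both AL ZT 14 libraries), the called member was Chka, which is not a chaperone. Herpud1, of the degradation pathway of the endoplasmic reticulum, was the 1 of 24 called in the unfolded protein response list, lower by 1.31 in log2. Sesn3, a sestrin that restrains mTORC1, was the 1 of 20 called among nutrient sensors, with 20.9 to 33.9 CPM at dawn and 9.39 to 13 at dusk. Nmrk1, a nicotinamide riboside kinase, was the 1 of 18 called in NAD metabolism, with 7.38 to 9.11 CPM at dawn and 11.6 to 33.7 at dusk. Herpud1 was called in 2 and Sesn3 and Nmrk1 in 1 of the 8 fits that left out a library. Autophagy (28 genes, 5 with an unadjusted p under 0.05), the cell cycle (26, 6) and targets of ATF4 (19, 3) had 0 called by edgeR. So had acute phase proteins (27, 5) and cold-inducible RNA-binding proteins (5, 1). The share of all genes with an unadjusted p under 0.05 was 16.8%. The acute phase list had a median of 0.28. Its summed level was 76140 CPM in AL ZT 22 2C, 9743 to 14210 in the other dawn libraries and 14470 to 26210 at dusk. The other dawn libraries were thus all under the dusk libraries.

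Markers of other cells gave 1 call. S100a8, an alarmin of neutrophils, measured 52.5 CPM in AL ZT 22 2C and 2.40 in 2d, 5.07 and 3.55 at ZT 2, and 1.03 to 3.31 at dusk. Both ZT 2 libraries were above every dusk library, and 2d was within the dusk range. In CR liver S100a8 changed by 2.82 ± 0.57 between the same windows (SE, edgeR adjusted p = 0.00646), and the neutrophil list had a median of 2.39. Much of the AL change lay in 1 library, since 2.23 ± 0.56 (SE, edgeR adjusted p = 0.043) became 0.48 without AL ZT 22 2C. The median of the 8 tested neutrophil genes was 1.90 with that library and 0.18 without it, and their summed level was 114 CPM in it, 5.58 to 11.6 in the other dawn libraries and 2.51 to 8.69 at dusk. Egr1, an immediate early gene, was also highest in 2C, with 50.9 CPM. It measured 1.20 in 2d, 9.78 and 9.17 at ZT 2 and 1.60 to 3.07 at dusk. Its change of 2.63 (edgeR adjusted p = 0.0488) was 0.41 without 2C, and both ZT 2 libraries were above every dusk library. Markers of Kupffer cells, lymphocytes, stellate cells, endothelium, cholangiocytes, red cells, adipocytes and pancreatic acinar cells had 0 called by edgeR and 0 to 6 genes a list with an unadjusted p under 0.05, and their summed levels overlapped between the windows (exact permutation tests, two-sided p from 0.171 to 0.971).

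The hours between the windows showed intermediate levels for many called genes. The mean of ZT 6 lay between the window means for 178 of the 265 called genes (67.2%), against 23.5% of all genes tested, and that of ZT 18 for 124 (46.8%), against 20.7%. Called genes differ more between windows by choice, which widens the gap for a mean to fall in. Arntl, for example, measured 2.83 and 2.30 CPM at ZT 6 and 5.28 and 6.20 at ZT 18. Dbp was close to its dawn level at both hours, with 1.76 and 1.34 CPM at ZT 6 and 2.47 and 3.20 at ZT 18. Usp2 was at its dawn level at ZT 6, with 3.74 and 3.77 CPM. At ZT 18 it measured 37.8 and 21.8, between its window means of 6.12 at dawn and 59.5 at dusk.

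Within the windows few genes were called, in contrasts of 2 against 2 libraries. Their counts cannot be set against those of the larger contrast between windows. Between ZT 2 and ZT 22, edgeR called 0 genes (0.0%), with 646 at an unadjusted p under 0.05 (4.17%), while DESeq2 called 17. Nr1d1, described above, had the smallest p there (change 4.24 ± 0.69, SE, edgeR adjusted p = 0.0653). Among named genes it was followed by the acute phase genes Orm3, Orm2 and Lcn2, whose values were set by library 2C. Between ZT 14 and ZT 10, edgeR called 1 gene (0.00646%), Gm13436, with 956 at an unadjusted p under 0.05 (6.17%), and DESeq2 called 23. The named genes of smallest p were Rgs16, a regulator of G protein signalling, Slco2a1, Sgk2 and Samd8. Rgs16 measured 8.11 and 43.5 CPM at ZT 10, 1.92 and 0.342 at ZT 14, and 0.782 to 2.16 at dawn. Both ZT 10 libraries were above the other 6, and it was not called between the windows (change -2.09 ± 0.64, SE, edgeR adjusted p = 0.0954).

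Most genes called in AL had a change of the same sign in CR liver at the same hours. The same contrast between CR libraries, from the model of all 24 libraries, gave 418 called genes, 2.7% of those tested, with 198 higher at dawn (1.28%) and 220 lower (1.42%). Of the 265 AL genes, 253 (95.5%) had the same sign in CR, against 66.7% of all genes tested, and 95 were called in both diets with the same sign. Those 95 make up 35.8% of the AL calls and 22.7% of the CR calls. Arntl changed by 4.20 ± 0.51 in CR and Dbp by -4.51 ± 0.60 (SE, edgeR adjusted p = 6.36e-05 and 0.000132). The median size of the change in CR over the 265 was 0.87; since the genes were chosen by their AL call, this is not set against their size in AL.

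**Figure D5:**
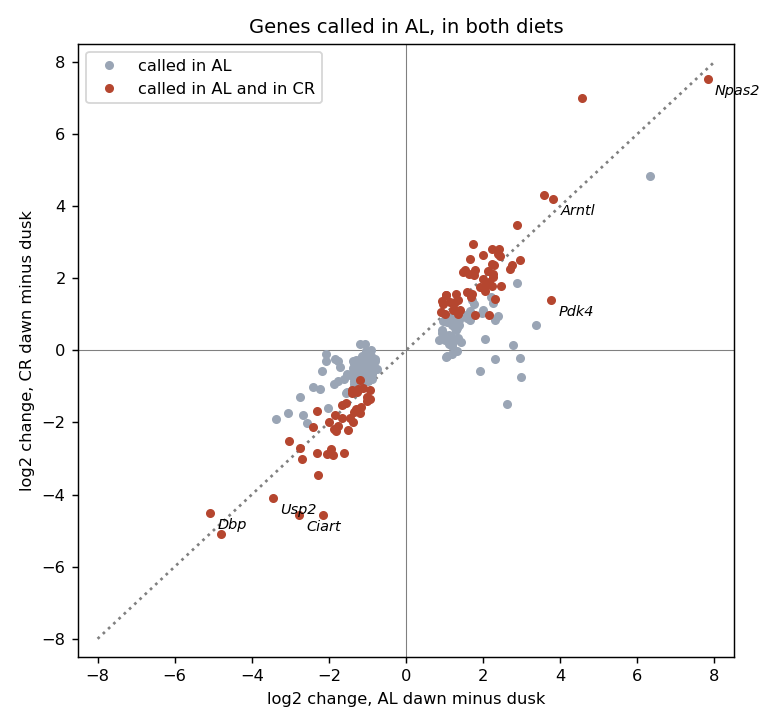
Change from dusk to dawn (log2) in CR against AL for the 265 genes called in AL; red points were also called in CR, the dotted line marks equal change. Of the points, 12 are of opposite sign, and others lie off the line to either side. Pdk4 measured 3.76 in AL and 1.39 in CR, Gstp1 -2.08 and -0.28, and Ciart -2.78 and -4.56. Npas2 has a group with 0 counts and its place is not a bound.

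No gene was called for a difference between the diets in this change. edgeR called 0 of 15490 (0.0%), with 845 at an unadjusted p under 0.05 (5.46%) and a smallest adjusted p of 0.138, and DESeq2 called 19. Pdk4 had that smallest p: in CR it measured 14.3 and 27.4 CPM at ZT 22, 19.5 and 12.4 at ZT 2, 2.54 and 4.37 at ZT 10, and 17.9 and 10.1 at ZT 14. Of the 4 CR dusk libraries the 2 of ZT 10 were low, whereas AL was low at both dusk hours, and the difference of the changes was 2.37 ± 0.43 (SE). The other named genes of smallest p were Trib1, Hspb1, Cdip1, Irf2 and Egr1. Trib1, a pseudokinase gene, changed by -0.29 in AL and -1.96 in CR, and Hspb1, a small heat shock protein, by -0.70 and 1.13. Scd1 changed by 2.05 in AL and 0.32 in CR, and Elovl5 by 2.16 and 0.99, and neither difference between diets passed the test (edgeR adjusted p = 0.72 and 0.638).

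Across the alternatives of processing, 15 of the 61 called genes named by rule were called in every one that tested them. These were Arntl, Npas2, Dbp, Usp2, Coq10b, Por, Chka, Rnf125, Lgalsl, Tubb2a, Ypel2, St5, Insig2, Ppp1r3c and Pdk4. A further 4, Ciart, Pim3, Clpx and Elovl5, were called in all 8 fits that left out a library but not in every other alternative.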

How the data were processed

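Polysome-associated poly(A) RNA of 24 mouse liver libraries was sequenced; this comparison rests on the 8 AL libraries of ZT 22, 2, 10 and 14. The values deposited are raw counts of reads for each gene. FastQC, HTSeq, DESeq2 and build GRCm38.p5 are named in the submitters' processing notes for the authors' work, with no version; the aligner is not given in any source used. Per the labels the libraries carry no strand, so overlapping genes can share reads. GENCODE M21 (GRCm38) gave a symbol to 52489 of 52636 identifiers.

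The test was the quasi-likelihood test of edgeR 4.0.16 in R 4.3.3, with TMM scaling and filterByExpr over 12 groups, which left 15490 genes. One design with a coefficient for each diet and hour was fitted to all 24 libraries, so that groups of 2 share an estimate of the spread, and the contrast was the average of ZT 22 and 2 minus that of ZT 10 and 14. SEs are the log2 change divided by the square root of the F statistic. The 8 libraries held 13.8 to 37.6 M counts, of which 5.64 to 34.7 M lay outside ribosomal RNA features. Of the tested genes, 799 had a group without counts, and 3 of those were called. Counts of 15490 genes were simulated for this contrast. Of genes changed by 1 in log2, 32 of 100 were recovered, and of those changed by 2, 96 of 100, with 4 false calls among 132. The changed genes were drawn only from those above a set mean level, so recovery over all tested genes may be lower.

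The rule for naming took called genes whose windows do not overlap and whose geometric mean reached 10 CPM, left out Gm and Rik names, and kept the 12 of largest change in each direction. It added the members of the 4 clock lists, 1 of which is not reported here, up to 5 called genes per other list, the 6 genes of smallest p for AL against CR and the 4 of smallest p within each window. Gm13436 and Rps16 fall outside it and were picked once their values had been seen. The comparison and the lists were chosen with earlier results of these data known, and lists are described by counts and medians with no test. The replicate numbers showed no clear pairing between the AL groups of ZT 2, ZT 10 and ZT 14. There, deviations of same-numbered libraries correlated at -0.0537, 0.0743 and -0.009 across genes. Other groups were not compared in this way, and a link limited to some genes need not show in such a correlation. Alternatives were DESeq2 1.42.0, other scalings and filters, a replicate block, fits on fewer libraries and leaving out each library. Those without both libraries of ZT 22 or ZT 14, with a covariate for ribosomal RNA reads, with centring by length and GC content, and with the same genes tested were chosen after seeing the data. Promoter sequences are from RefSeq, build GRCm38.p6.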

Additional observations from a re-analysis of the deposited data

Results flagged for a closer look

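Among 170 sets of 4 libraries checked for a library far from the other 3 (Dixon's criterion at the 95% level), 6 had one, and chance gives about 1 in 20. The sets share the same libraries and 164 of them are windows of named genes, so that rate is a rough guide only. All 6 lay in the dawn window and 5 in the library AL ZT 22 2C. In that library Orm2 measured 1640 CPM against 9.45 to 11.2 in the other dawn libraries, Orm3 97.8 against 1.33 to 5.92, and Lcn2 300.0 against 1.46 to 2.94, all of them acute phase genes that were not called between dawn and dusk. Orm2, Orm3 and Lcn2 had been named for their difference between ZT 2 and ZT 22, which the values of 2C set. Their flags thus follow from that choice. In 2C S100a8 measured 52.5 against 2.40 to 5.07, and Lgalsl 37.4 against 24.2 to 25. Usp2 measured 14.4 CPM in AL ZT 22 2d against 1.97 to 4.06 in the other dawn libraries, and stayed under every dusk library.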

How the results depend on the processing

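All 265 genes called between dawn and dusk kept their direction in the alternatives that tested them, which was each one run except the stricter filter on low counts, where 256 were tested and kept it. The alternatives reuse the libraries that picked these genes, so a kept direction says little about stability. The number past the threshold ranged widely. DESeq2 called 869 (313 higher at dawn, 556 lower), and a fit without a filter on low counts called 583 (266 and 317). Without a correction for composition 54 were called (30 and 24). The 12 AL libraries alone gave 447 (169 and 278), the 8 libraries alone 1201 (483 and 718), and the 8 with 1 mean per window 493 (186 and 307). Leaving out 1 library gave 52 to 159 calls, with 28 to 79 higher and 22 to 105 lower. Leaving out AL ZT 22 2C and AL ZT 10 replicate 1 together gave 33 (21 and 12), leaving out both ZT 22 libraries 63 (48 and 15), and leaving out both ZT 14 libraries 60 (30 and 30). The replicate block gave 242 (99 and 143), of which 226 were shared with the 265. Centring within 25 classes of transcript length and GC content gave 194 (79 and 115), of which 134 were shared. Of the 61 called genes named by rule, 42 were still called after that centring and 19 were not.

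For the difference between AL and CR, DESeq2 called 19 genes, the fit without a filter 69, and leaving out a library 0 to 2. For ZT 2 against ZT 22, DESeq2 called 17, no composition correction 1, no filter 52, the replicate block 3, the ribosomal RNA covariate 2, and leaving out a library 0 to 21, the 21 without AL ZT 22 2d. For ZT 14 against ZT 10, DESeq2 called 23, no composition correction 15, no filter 82, the 8 libraries alone 15, the 12 AL libraries alone 0, the fit without AL ZT 22 2C and AL ZT 10 replicate 1 gave 0, and leaving out a library 0 to 2. Without a composition correction the median of all genes moved to 1.05 for ZT 2 against ZT 22 and to -0.86 for ZT 14 against ZT 10. The cause of these differences was not tested.

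Outside ribosomal RNA features the 8 libraries held 5.64 to 34.7 M counts. At these depths and library numbers a gene changed by 1 in log2 was recovered in 32 of 100 simulated cases. Those cases were drawn from genes above a set mean level. Genes with a group at 0 counts have no bounded fitted change.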
